A study of Danaus plexippus with 32 samples.

Results

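In the brains of wild-type monarch butterflies (*Danaus plexippus*), 68 genes had RNA levels that peaked late in the night, in the last 6 h before lights on. They were chosen by their fit in wild-type. Log2(FPKM + 1) was regressed on the cosine and sine of a 24-h period over 15 wild-type libraries, and genes were kept when their F-test p was below 0.005 and their fitted peak fell from ZT18 to before ZT24 (Zeitgeber Time, in hours after lights on). FPKM counts the fragments of a transcript relative to its length and to the mapped reads of the library. Of 15130 genes in the files, 10412 reached an FPKM of 3 in a wild-type library and were tested. At any peak time 354 of them (3.4%) passed the p threshold, and 70 (0.672%) did so with a peak in the late night window. Of these 70, 2 clock genes, *per* (DPOGS203908) and *Cry2* (DPOGS208079), were set aside by the rule, while the third it names, *cwo* (DPOGS209925), peaked before the window. A gene name was paired with 33 of the 68 identifiers, and 35 are given by identifier alone. The names come from a table of genes that the study called rhythmic in these same samples. The gene lists below were drawn from that table, so that a high share of their genes passing the p threshold is set by how they were made and is not to be read against the 3.4% over all tested genes.

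A circadian clock is a loop of transcription factors and their repressors that gives many genes a peak at one time of day. In the monarch, CLK drives transcription as part of an activator complex, and CRY2, a vertebrate-like cryptochrome, represses it. Genes with a late night peak are high in the hours of darkness before lights on. Proteins that fold other proteins, move ions and handle nutrients are among the products that insects are known to regulate over the day. The roles given below are those known from *Drosophila* unless another source is named.

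Libraries of poly(A) RNA were made from brains, freed of eye photoreceptors, of adults kept for at least 7 days after emergence in 15 h of light and 9 h of darkness at 25 °C. Wild-type brains were taken every 3 h from ZT1 to ZT22, and brains of *Cry2* knockouts (Cry2KO) and *Clk* knockouts (ClkKO) every 6 h from ZT4 to ZT22. In all, 32 libraries of 3 pooled brains were made, with 2 libraries per genotype and time, and in the labels every replicate 1 is male and every replicate 2 female. Sex and replicate number are therefore the same split, so that an effect of sex and anything else that goes with the number cannot be told apart.

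The files hold FPKM with an interval and no counts. The reads behind the values, taken from that interval, summed to between 2848069 and 4456322 on genes per library (median 3452435). The median of the 68 genes rested on 187 reads, with a 95% interval of ± 14.6% that covers counting error only. The wild-type female library of ZT22 stood apart from the others and was not used to choose the genes, and the *Clk* knockout male library of ZT4 had low values for most genes, with a median over all tested genes 0.36 log2 units below the wild-type mean. *Cry2* RNA averaged 25.6 ± 5.37 in wild-type at the 4 shared times and 22.9 ± 0.667 in *Cry2* knockouts (FPKM, SD, n = 8 each, log2 difference -0.13, standard error 0.06, limma adjusted p = 0.191), so that the RNA level does not check the label. *Clk* has no identifier in the sources used here. All 4 neuronal and all 3 glial markers were detected in every genotype. They were named from the study's table of rhythmic genes, so that they can themselves vary with time and genotype. The paper reports a rhythm of *Eaat2* and of the GABA receptor gene among them, that of *Eaat2* being disturbed in both knockouts. The summed FPKM of the glial markers (*Eaat2* and 2 *ebony* genes) ranged from 490 to 681 in wild-type. It ranged from 406 to 534 in *Cry2* knockouts and from 333 to 609 in *Clk* knockouts. That of the 4 neuronal markers ranged, in the same order, from 158 to 194, 161 to 188 and 122 to 212. For 2 genes taken as eye markers (*Pdh* and *ninaB*) it was 36.2 to 54.7, 32.5 to 46.6 and 37.7 to 48.7. *Mhcl*, a myosin heavy chain-like gene, ranged from 10.03 to 16.2, 10.3 to 11.04 and 7.82 to 14.3. Single markers moved apart within these sums. The median of *Eaat2* was 122 in wild-type and 147 in *Clk* knockouts, while the *ebony* genes went from 175 to 135 and from 285 to 221. In *Cry2* knockouts all 3 glial medians were lower (87.5, 112 and 257). There *ninaB* was at 13.6, beside 24.2 in wild-type, and *Pdh* at 25.5, beside 23.3. The part of these markers in the differences below was not tested. In RNA of whole brains, fewer cells of a type and less RNA per cell cannot be told apart.

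The wild-type rhythms were mostly shallow. These values chose the genes and are given as a description, with no test. Fitted peak-to-trough ranges ran from 0.11 to 2.00 log2 units with a median of 0.42, which is a 1.34-fold change on the FPKM + 1 scale, and the median over all tested genes was 0.17. The range passed 1 log2 unit in 9 genes and was under 0.3 in 17. Fitted peaks crowded early in the window. There were 36 between ZT18 and ZT20, 18 between ZT20 and ZT22, and 14 from ZT22 on. Wild-type median levels spanned FPKM of 1.16 to 1033, with a median of 21.8 over the 68 genes and of 17.2 over all tested genes.

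**Figure D1:**
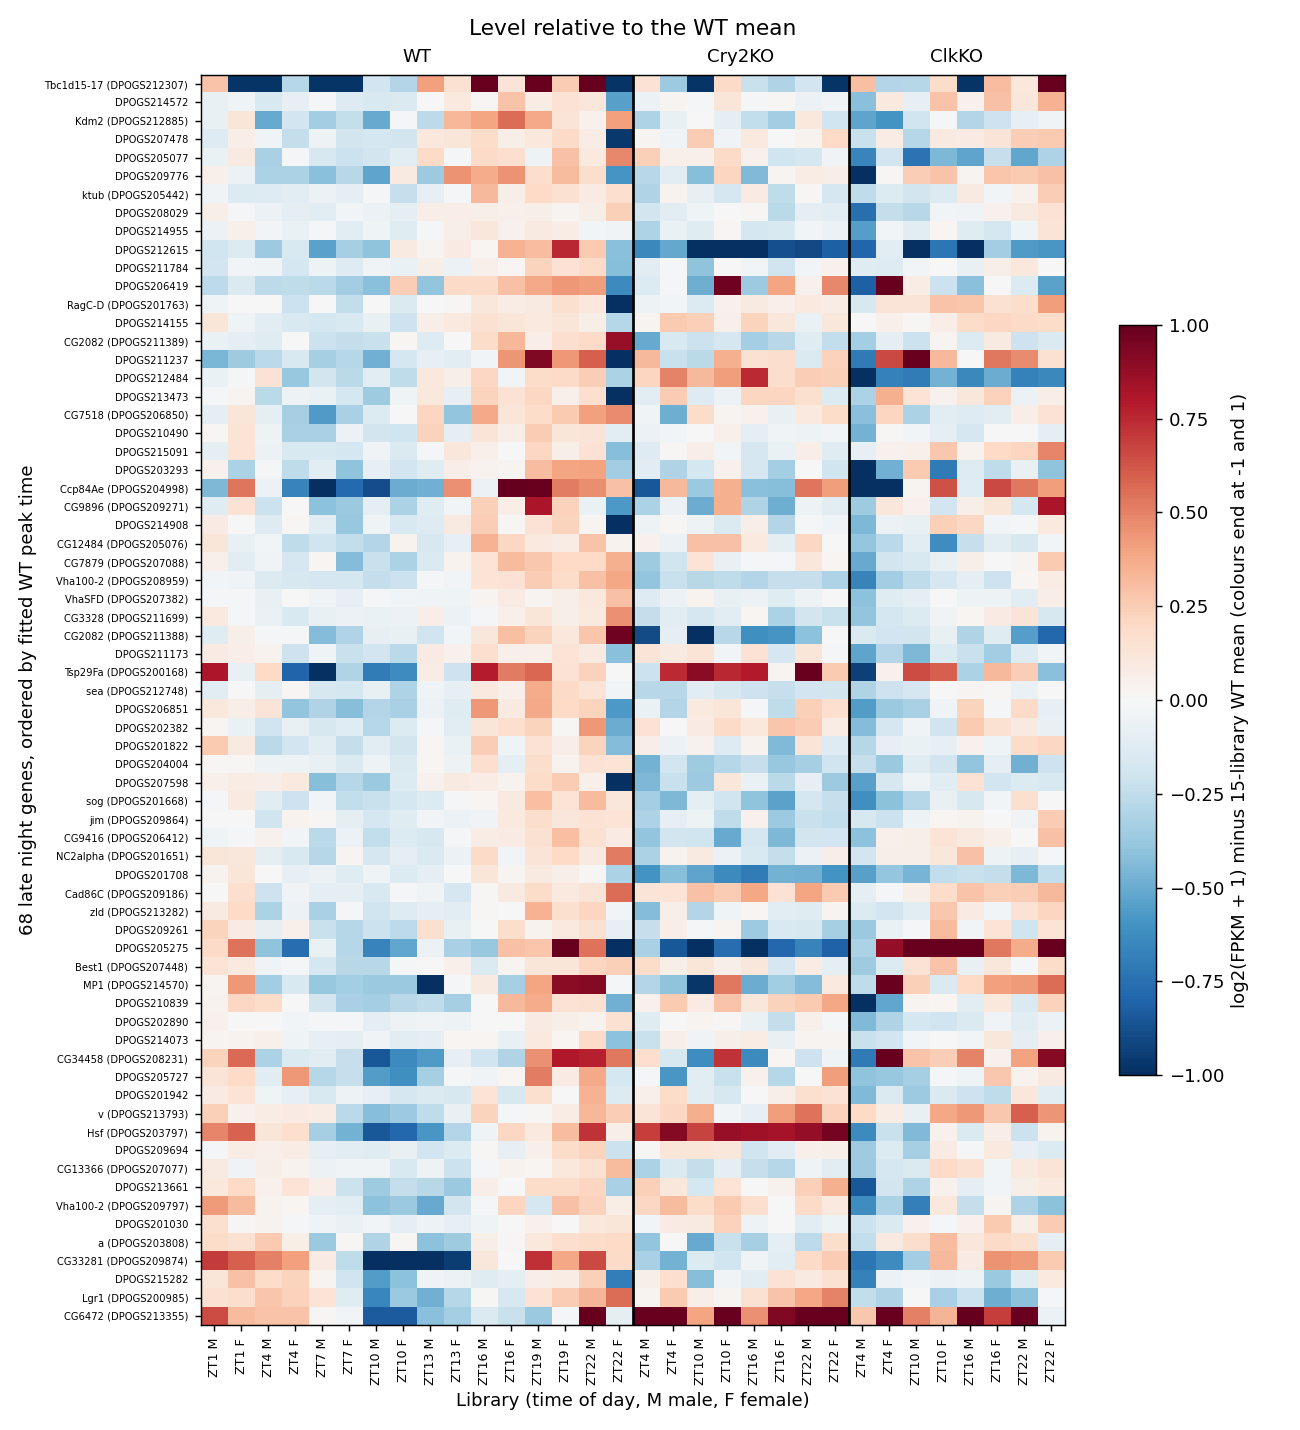
Level of each of the 68 late night genes (lines, ordered by fitted wild-type peak time) in each of the 32 libraries (columns, by genotype, time and sex), as log2(FPKM + 1) minus the gene's mean in the 15 wild-type libraries used. Red at ZT16 to ZT22 and blue at ZT7 and ZT10 mark the wild-type pattern that chose the genes, the wild-type female column of ZT22 breaks it, and *Hsf* and *CG6472* stay red and DPOGS201708 blue across the 8 *Cry2* knockout columns. Colours end at a difference of 1 log2 unit.

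The threshold fell in a dense part of the ranking. Over n = 15 libraries, the last genes inside were DPOGS214955 (p = 0.00451, range 0.15), DPOGS211784 (p = 0.00455, range 0.26) and *Tsp29Fa* (DPOGS200168, a tetraspanin of the cell surface, p = 0.00456, range 1.28). The first outside, also over n = 15, were *l(1)G0289* (DPOGS203923, p = 0.00507, range 0.50), DPOGS214023 (p = 0.00520, range 1.43) and DPOGS205071 (p = 0.00526, range 0.36). The p on either side of it differed by little.

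*Hsf* (DPOGS203797, scaffold DPSCF300010, 1629680 to 1635557 on monarch assembly v3), the heat shock factor that switches on chaperone genes, was measured with a median of 471 reads per library. In wild-type, its FPKM at ZT10 was 16.6 in males and 17.3 in females. It climbed through 29.8 and 35.5 at ZT16 and 32.9 and 38.2 at ZT19 to 51.3 in the male library of ZT22, and stood at 43.4 and 46.7 at ZT1. The fitted peak was at ZT22.5 with a range of 1.32 log2 units. The other heat shock genes with names peaked later, in the day. The list of chaperone and heat shock genes held 10 genes, 8 of which passed the p threshold of the rule, and *Hsf* was the 1 with a late night peak. The 3 *Hsp68* genes had fitted peaks at ZT4.69 (DPOGS213900), ZT4.78 (DPOGS213901) and ZT4.52 (DPOGS213925).

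Subunits of the vacuolar proton pump (V-ATPase), which acidifies organelles and synaptic vesicles, had 3 members with names. *Vha100-2* (DPOGS208959, DPSCF300009, 787444 to 796255), a subunit of the membrane part of the pump, had the smallest p of the 68 (1.82e-07). Its wild-type FPKM was 88.7 and 90.2 at ZT10, 115.4 and 115.8 at ZT16, 125 and 119 at ZT19, and 128 in the male library of ZT22. A second locus with the same name (DPOGS209797, DPSCF300117, 682555 to 699402) ranged from 27.6 to 53.3 and peaked at ZT22.9, 0.66 log2 units above its trough. *VhaSFD* (DPOGS207382), a subunit of the part that splits ATP, ranged over 0.12 log2 units, from 148 to 169, around a peak at ZT19.5. *Best1* (DPOGS207448), a bestrophin chloride channel, ranged from 7.59 to 11.1 with a peak at ZT21.1. *VhaAC45* (DPOGS205239), an accessory subunit of the pump, had a fitted peak at ZT20.3 but a p of 0.0102 and was not chosen. Of 14 genes listed for the V-ATPase and for ion and metal transport, 11 passed the p threshold and 4 of them were late night genes.

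The deepest fitted rhythm was that of *CG33281* (DPOGS209874), at 2.00 log2 units around ZT23.2. Its FPKM fell from 175 and 162 at ZT1 to 49.7 and 38.2 at ZT10 and 40.7 and 54.8 at ZT13, and was 178 and 140 at ZT19. *Ccp84Ae* (DPOGS204998), a cuticle protein gene, had a range of 1.71, from an FPKM of 9.63 to 57.8. The range of 1.62 of *Tbc1d15-17* (DPOGS212307), a regulator of Rab GTPases, rests on values from 0 to 3.04, with a median of 1 read per library, and is listed here for completeness. *MP1* (DPOGS214570), a serine protease of the melanization response, ranged from 3.19 to 15.54 and peaked at ZT21.5.

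Other regulators of transcription had fitted ranges of 0.24 to 0.71 log2 units, beside a median of 0.42 over the 68 genes. *zld* (DPOGS213282, zelda, a pioneer factor that opens chromatin in the early embryo) ranged from 11.8 to 19.3 with a peak at ZT20.7, and *jim* (DPOGS209864), a zinc finger protein, from 9.22 to 12.3 with a peak at ZT20.3. *NC2alpha* (DPOGS201651), which holds the TATA-binding protein in check, ranged from 21.7 to 30.9 and peaked at ZT20.5. *Kdm2* (DPOGS212885), a histone demethylase, ranged from 10.2 to 22.4 and peaked at ZT18.1. Of the 23 listed DNA-binding factors 13 passed the p threshold, and *zld* and *jim* were the 2 with a late night peak. Of 14 chromatin and transcription regulators 4 passed it, with *NC2alpha* and *Kdm2* in the window.

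Other members with names had roles outside these groups. *sog* (DPOGS201668), a secreted antagonist of BMP signals, ranged from 32.3 to 48.4, and both sexes were at their lowest between ZT4 and ZT10. *Lgr1* (DPOGS200985), a G protein-coupled receptor of the glycoprotein hormone type, ranged from 51.1 to 102 and peaked at ZT23.5. *sea* (DPOGS212748, scheggia), a mitochondrial citrate carrier, ranged from 92.2 to 149. *RagC-D* (DPOGS201763), a GTPase that reports amino acids to TORC1, ranged from 26.1 to 34.8, and *v* (DPOGS213793, vermilion), which starts tryptophan breakdown, from 14.4 to 25.1. *Cad86C* (DPOGS209186), a cadherin, ranged from 138 to 181, *ktub* (DPOGS205442, king tubby), a Tubby family protein, from 9.75 to 14.8, and *a* (DPOGS203808, arc) from 3.39 to 5.98. No gene of the lists for the proteasome, RNA processing and translation, sugar metabolism or neurotransmission had a place among the 68. The 35 members without a name could not be on any list, so that such roles among them are not known.

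The 68 genes lay on 57 scaffolds. In 3 cases, members were direct neighbours. The 2 genes named *CG2082*, DPOGS211389 (DPSCF300115, 582329 to 586865) and DPOGS211388 (588263 to 599134), were 1398 bp apart. DPOGS206851 and DPOGS206850 (*CG7518*) were 60 bp apart on DPSCF300001, and *CG12484* (DPOGS205076) and DPOGS205077 were 141 bp apart on DPSCF300074. Whether each pair is 2 genes or 1 gene split by the annotation was not tested. The models of DPOGS203293, *Best1* and DPOGS214955 overlap another gene model. The library kit marks strand, and whether the authors' counting used it is not given in the sources used here.

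The wild-type female library of ZT22 is the one independent wild-type measure of these genes. The fit to the other 15 libraries put the median gene 0.18 log2 units above its mean at this time. In this library, 30 of the 68 genes (44.1%) were above their mean, with a median of -0.03, beside 47.1% and a median of -0.05 over all tested genes. The late night genes were therefore not raised in it as a group. Its values were scattered in both directions, with 15 of the 68 genes at their highest and 23 at their lowest of all 16 wild-type libraries. The shares of all tested genes at such extremes were not computed, so these counts are not a trait of the late night genes. *CG2082* (DPOGS211389) read 713 beside 444 in the male library of the same time, *Vha100-2* (DPOGS208959) 137 beside 128, *Hsf* 32.0 beside 51.3, and *RagC-D* 10.9 beside a lowest value of 26.1 in the other 15. With this library in the fit, 29 of the 68 genes still had a p below 0.005 and 51 kept a fitted peak in the window.

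**Figure D2:**
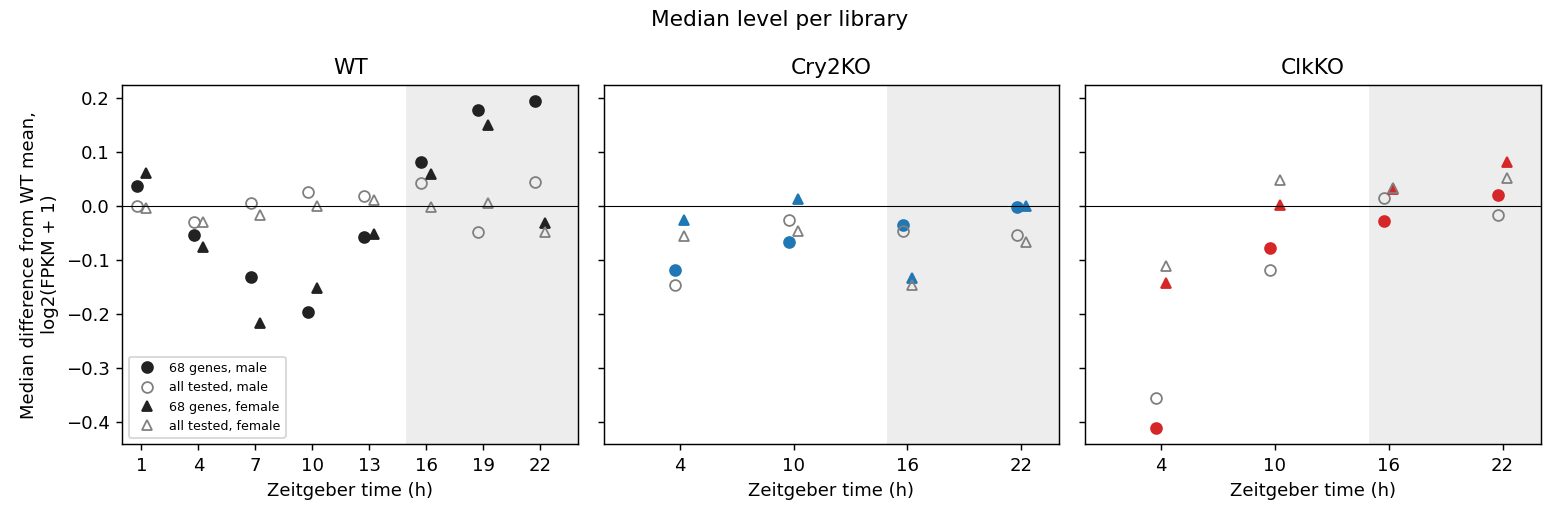
Median over the 68 late night genes (filled) and over all tested genes (open) of the difference from each gene's wild-type mean, in log2(FPKM + 1), against time of day for males (circles) and females (triangles), with darkness shaded. In wild-type, 65 or more of the 68 genes were above their mean at ZT19 and in the male library of ZT22, and 30 were in the female library of ZT22.

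Both sexes of wild-type took part in the rhythm that chose the genes. Fitted alone, the 8 male libraries put 61 of the 68 peaks in the late night window and the 7 female libraries, which lacked ZT22, put 58 there. Of all tested genes, 23.9% peaked there in the male fit and 26.9% in the female fit. The peak times of the sexes differed by a median of 1.01 h and by at most 3.79 h (DPOGS209776, ZT20.0 in males and ZT16.2 in females), beside a median of 4.74 h over all tested genes. The range was wider in males in 44 genes and wider in females in 24, with medians of 0.46 and 0.41. Over all tested genes the medians were 0.21 in males and 0.22 in females, and the share wider in either sex was not computed. Among well measured genes, *Hsf* had a range of 1.35 in both sexes and *Vha100-2* (DPOGS208959) 0.50 in males and 0.41 in females. The 2 sexes chose these genes together, and the likeness is a description. In level, 0 late night genes passed the test of sex in wild-type over 16 libraries (limma, adjusted p of 0.05 or less), and 4 had an unadjusted p below 0.05, beside 13.7% of all tested genes. Genes with a wide gap between the sexes are unlikely to pass the rule, so that few were to be found. Over all tested genes, 0.595% were higher in females and 0.547% lower.

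Whether the genes still rose at night was asked in each knockout by the fitted difference between ZT21 and ZT9 over its 8 libraries. In *Cry2* knockouts, its median was near 0. The median of the 68 genes was 0.03 log2 units, beside 0.39 in the wild-type fit and -0.02 over all tested genes in *Cry2* knockouts, and 39 of the 68 values (57.4%) were above 0, beside 45.4% over all tested genes. With each *Cry2* knockout library left out in turn, the median ran from -0.02, without the male library of ZT22, to 0.10, without the female library of ZT10. Median-of-ratios scaling, which sets the typical gene of each library equal, gave medians of 0.05 for the 68 genes and 0.00 for all. On that scale 41 of the 68 (60.3%) were above 0, beside 50.2% of all tested genes. No gene passed the test in either direction (limma, 0 of 68, beside 0% of all tested genes), and 2 had an unadjusted p below 0.05, beside 3.27% of all tested genes. These were *Lgr1*, at 0.40 (95% interval 0.06 to 0.74, adjusted p = 1), and DPOGS201030, at -0.25. The fitted range was narrower than in wild-type in 67 of the 68 genes, with a median of 0.16 beside 0.19 over all tested genes. The wild-type range chose the genes, so that a smaller value in any other libraries is partly set by the choice. Fitted peaks fell in the late night window for 22 genes (32.4%), beside 22.4% of all tested genes. With median-of-ratios scaling they did so for 28 genes (41.2%), beside 25.8%.

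The FPKM of *Hsf* in *Cry2* knockouts was 50.0 and 58.7 at ZT4, 49.7 and 56.8 at ZT10, 56.0 and 55.3 at ZT16, and 57.1 and 60.5 at ZT22. The night minus day difference was 0.15 (95% interval -0.23 to 0.52), beside 1.23 in the wild-type fit that chose the gene. *Vha100-2* (DPOGS208959) stayed between 79.2 and 89.4 in all 8 libraries, with a difference of 0.01 (interval -0.30 to 0.31) against 0.43 in wild-type. *CG33281* had an FPKM of 85.3 and 77.02 at ZT4, 97.5 and 92.8 at ZT10, 104 and 99.6 at ZT16 and 122 and 128 at ZT22, a difference of 0.46 that did not pass the test (interval -0.09 to 1.01, adjusted p = 1) against 1.68. Its lowest values were at ZT4, whereas ZT10 was the lowest of these 4 times in wild-type. The typical interval was ± 0.38 log2 units, about as wide as the median wild-type difference, and in simulated data a true difference of 1 was called in 60.5% of genes and one of 0.4 in 0%. The error of the test came from all 16 knockout libraries. A missing call therefore does not show that a rhythm as shallow as that of wild-type was lost. The *Cry2* knockout interval lay below the wild-type difference in 28 of the 68 genes, and in the rest it did not. The wild-type difference chose the genes, so that this count is partly set by the choice.

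In *Clk* knockouts, the night minus day difference had a median of 0.17 and was above 0 in 54 of the 68 genes, but the level of all genes moved the same way, with a median of 0.12 and 73.8% of tested genes above 0. With median-of-ratios scaling, the medians were 0.05 for the 68 genes and 0.00 for all, with 42 of the 68 above 0. No gene passed the test (limma, 0 of 68, beside 0% of all tested genes) and 6 (all higher at night) had an unadjusted p below 0.05, beside 6.23% of all tested genes. Among these 6 were *CG33281*, at 0.59 (95% interval 0.04 to 1.14, adjusted p = 0.727), and *Vha100-2* (DPOGS208959), at 0.34 (interval 0.03 to 0.65, adjusted p = 0.727). The FPKM of this *Vha100-2* was 65.6 and 82.1 at ZT4, 87.6 and 93.1 at ZT10, 97.9 and 90.7 at ZT16 and 106 and 110 at ZT22. Its lowest value came from the male library of ZT4, which was low for most genes. Without that library the median of the 68 genes was 0.13, beside 0.08 over all tested genes. It was 0.07, beside 0.06, with 41 genes above 0, without the female library of ZT22, and 0.25, beside 0.22, without the female library of ZT10. *Hsf* had a difference of 0.20 (interval -0.17 to 0.58).

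The test between the knockouts in the night minus day difference called 0 of the 68 genes (limma, beside 0.0096% of all tested genes), and 2 had an unadjusted p below 0.05, beside 4.82% of all. The median of the difference was 0.12, beside 0.14 over all tested genes, and with median-of-ratios scaling it was -0.02, beside 0.00. The largest gap was that of *CG2082* (DPOGS211388), at 0.40 in *Cry2* knockouts and -0.53 in *Clk* knockouts (unadjusted p = 0.0312, adjusted p = 0.822).

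**Figure D3:**
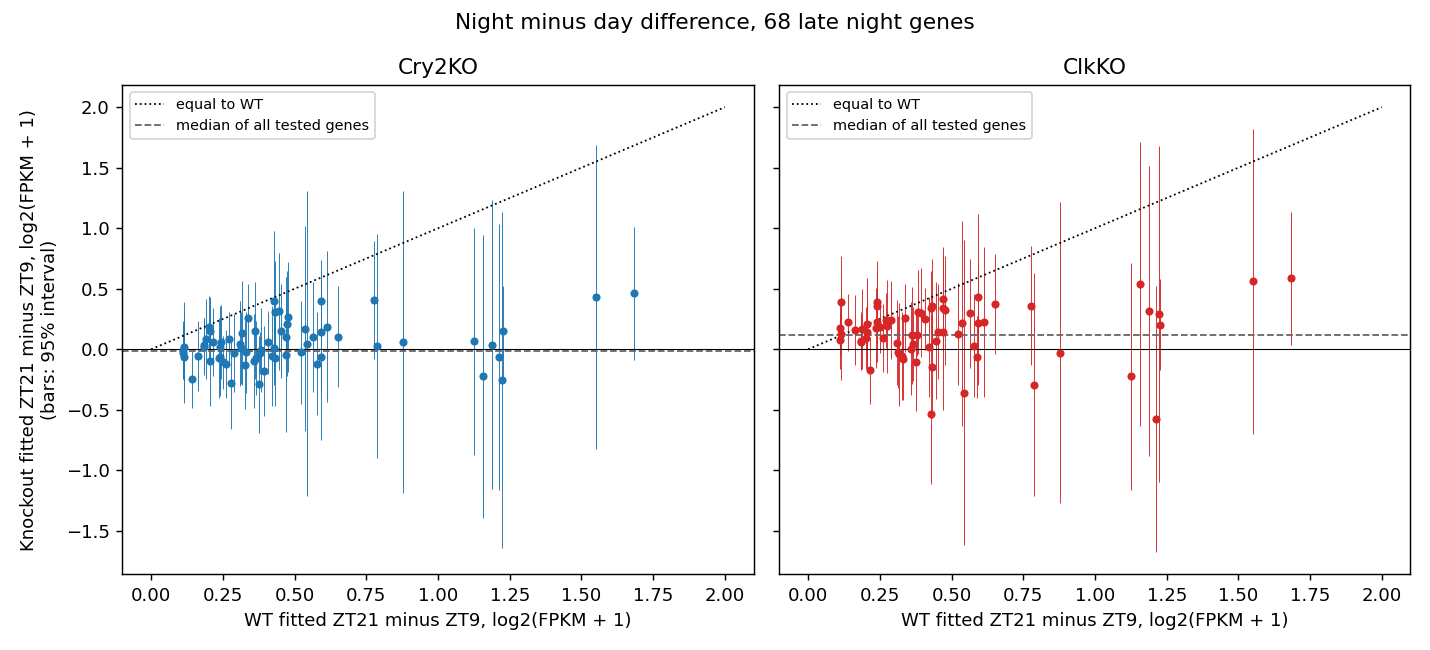
Fitted ZT21 minus ZT9 difference of each of the 68 late night genes in each knockout (vertical axis, bars are 95% intervals) against the same difference in the wild-type fit that chose them (horizontal axis), both in log2(FPKM + 1). The median of the points is near 0 in *Cry2* knockouts and near the dashed median of all tested genes in *Clk* knockouts. Single points run from -0.29 to 0.46 and from -0.57 to 0.59. Most lie below the dotted line of equality with wild-type.

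The mean level over ZT4, ZT10, ZT16 and ZT22 was compared between genotypes, a measure in which a 24-h rhythm cancels. In *Cry2* knockouts 3 of the 68 genes rose (1.27% of all tested genes did) and 10 fell (8.01% of all). The median of the 68 was -0.02, beside -0.08 over all tested genes. With median-of-ratios scaling, 7 rose and 6 fell, so that the split between rises and falls rests on the scale. Without the wild-type female library of ZT22 the median was -0.05, beside -0.08 over all tested genes. Without the male library of that time it was 0.04, beside -0.07. The rule favours genes with a small scatter in wild-type, which enters the error of the test, and the share called is not to be read against that of all genes for this reason.

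*Hsf* was among the 3 that rose. Its FPKM was 49.7 to 60.5 (median 56.4) in the 8 *Cry2* knockout libraries and 16.6 to 51.3 (median 32.7) in wild-type at the same times, higher in 8 of 8 pairs of the same time and sex. Every *Cry2* knockout value but those of the males at ZT4 and ZT10 lay above the wild-type maximum. The difference was 0.88 log2 units (standard error 0.10, limma adjusted p = 0.000200), and 0.80 without the wild-type female library of ZT22. The mean level in *Cry2* knockouts was at 113% of the way from the wild-type trough to the wild-type peak. *CG6472* (DPOGS213355) rose by 1.11 (standard error 0.27, adjusted p = 0.0194), from 2.30 ± 1.62 to 5.81 ± 2.16 (SD, n = 8 each), and was higher in 8 of 8 pairs. The third was DPOGS212484, at 289.3 ± 40.9 beside 218 ± 36.5 (SD, n = 8 each), a difference of 0.42 (adjusted p = 0.0294) that was 0.35 and no longer called (adjusted p = 0.0506) without the wild-type female library of ZT22.

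The 10 genes that fell in *Cry2* knockouts did so by 0.18 to 0.88 log2 units. *Vha100-2* (DPOGS208959) fell by 0.30 (standard error 0.05, adjusted p = 0.00223), from 108 ± 18.6 to 86.3 ± 3.48 (SD, n = 8 each), and was lower in 8 of 8 pairs. Its level was below the trough of the wild-type fit. *sog* fell by 0.28 (standard error 0.06, adjusted p = 0.00709), from 38.3 ± 5.37 to 31.3 ± 3.41, and was lower in 7 of 8 pairs. *sea* fell by 0.18 (adjusted p = 0.0274), from 113 ± 10.7 to 99.4 ± 3.94, a call that was lost with median-of-ratios scaling (-0.10, adjusted p = 0.161). The 2 *CG2082* neighbours fell by 0.67 (DPOGS211388, adjusted p = 0.00698) and 0.41 (DPOGS211389, adjusted p = 0.0142), and still by 0.58 and 0.32 without the wild-type female library of ZT22, in which both were high. DPOGS201708 fell by 0.50 (standard error 0.06, adjusted p = 0.000329), and its *Cry2* knockout values of 83.8 to 101 did not meet the wild-type ones of 110 to 149. DPOGS212615 fell by 0.88 (adjusted p = 0.00312), from 4.65 ± 1.20 to 2.09 ± 0.683. DPOGS204004, at 1076 ± 92.4 the most abundant, fell by 0.31 (adjusted p = 0.00996), but by 0.23 and short of the threshold with median-of-ratios scaling (adjusted p = 0.0657). *CG9416* (DPOGS206412) fell by 0.29 (adjusted p = 0.0432) and *CG13366* (DPOGS207077) by 0.23 (adjusted p = 0.0375), both near the threshold.

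In *Clk* knockouts 1 of the 68 genes rose (1.14% of all tested genes did) and 8 fell (4.73% of all). With median-of-ratios scaling 3 rose and 4 fell. Without the wild-type female library of ZT22 the median difference was -0.08, beside -0.07 over all tested genes. Without the male library of that time it was 0.00, beside -0.06. Without the *Clk* knockout male library of ZT16, 4 genes were called, and without the wild-type one 5 were. With all 24 libraries the median was -0.03, beside -0.06 over all tested genes. The gene that rose was DPOGS205275, a scarce transcript with a median of 4 reads per library, at an FPKM of 1.25 to 8.90 (median 4.42) beside 0 to 3.07 (median 1.03) in wild-type. The difference was 1.25 log2 units (standard error 0.28, adjusted p = 0.0194). DPOGS212484 fell by 0.61 (standard error 0.11, adjusted p = 0.00559), with all 8 *Clk* knockout values (108 to 161) under the lowest of wild-type (172). DPOGS205077 fell by 0.49 (adjusted p = 0.00711), from 11.4 ± 2.21 to 7.78 ± 1.19 (SD, n = 8 each), and was lower in 8 of 8 pairs. *Vha100-2* (DPOGS208959) fell by 0.23 (adjusted p = 0.0151), DPOGS201708 by 0.30 (adjusted p = 0.0147), DPOGS204004 by 0.27 (adjusted p = 0.0299) and DPOGS212615 by 0.57 (adjusted p = 0.0463). These 4 genes also fell in *Cry2* knockouts, in a comparison with the same wild-type libraries. DPOGS202890, which had the shallowest wild-type rhythm of the 68 and is among the most abundant, fell by 0.18 (adjusted p = 0.0195). *Lgr1* fell by 0.28 at the edge of the threshold (adjusted p = 0.0499). *Hsf* did not pass the test in *Clk* knockouts (-0.14, standard error 0.10, adjusted p = 0.431), with values of 19.4 to 32.1 that lay within the wild-type range.

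**Figure D4:**
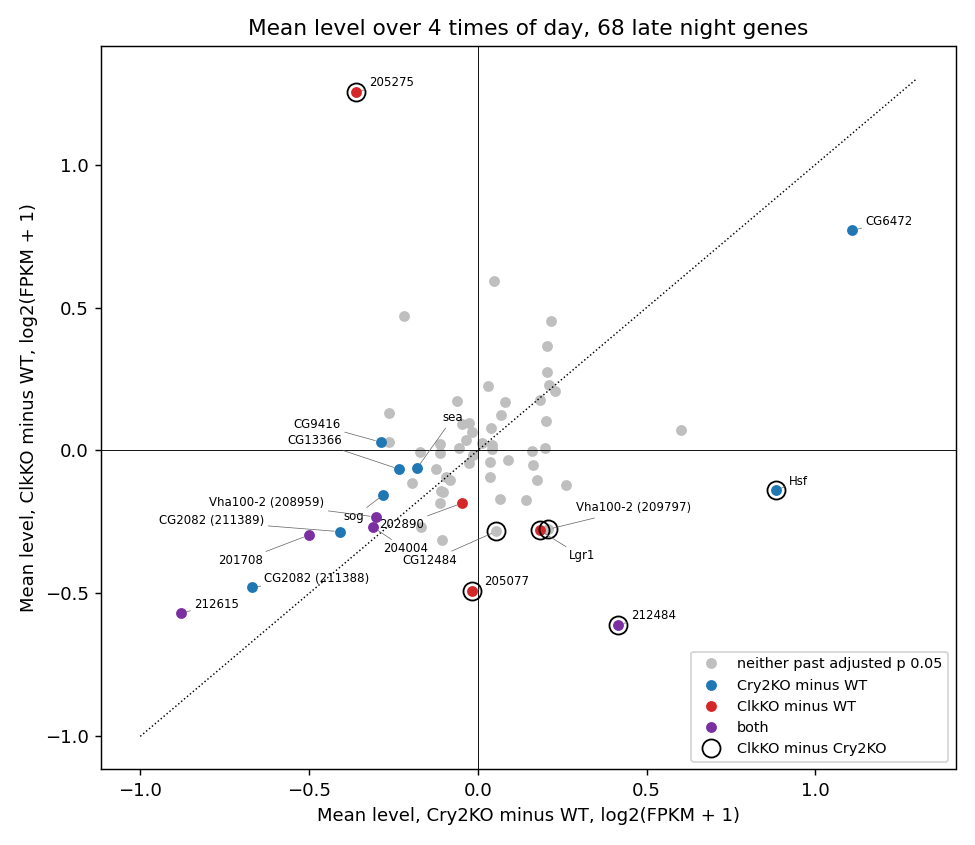
Mean level over ZT4, ZT10, ZT16 and ZT22 in *Clk* knockouts minus wild-type (vertical axis) against *Cry2* knockouts minus wild-type (horizontal axis), in log2(FPKM + 1), for the 68 late night genes. Colours mark genes past an adjusted p of 0.05 in either comparison and rings those that differed between the knockouts, where *Hsf* (0.88 and -0.14) and DPOGS212484 (0.42 and -0.61) lie farthest below the dotted line of equality and DPOGS205275 (-0.36 and 1.25) farthest above it. Both axes share the wild-type libraries.

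The direct comparison of the knockouts called 7 of the 68 genes, 1 higher in *Clk* knockouts (1.83% of all tested genes were) and 6 lower (1.18% of all). It uses no wild-type level, though the wild-type libraries enter its error. DPOGS212484 was lower by 1.03 log2 units in *Clk* knockouts (standard error 0.11, adjusted p = 0.000116), with 108 to 161 in *Clk* knockouts and 253 to 375 in *Cry2* knockouts. *Hsf* was lower by 1.02 (standard error 0.10, adjusted p = 7.92e-05), with 19.4 to 32.1 beside 49.7 to 60.5. In both genes the 2 knockouts did not overlap. *Vha100-2* (DPOGS209797) was lower by 0.48 (adjusted p = 0.0121), at 32.3 ± 6.42 beside 44.9 ± 2.96 (SD, n = 8 each), while neither knockout passed the test against wild-type at 39.2 ± 6.34. *Lgr1* was lower by 0.46 (adjusted p = 0.00453), at 57.4 to 80.7 beside 82.5 to 114.7. The neighbours DPOGS205077 and *CG12484* were lower by 0.47 (adjusted p = 0.0117) and 0.34 (adjusted p = 0.0449). DPOGS205275 was higher by 1.61 (standard error 0.28, adjusted p = 0.00596). The count rose from 7 to 12 with either wild-type library of ZT22 left out, which removes the gap between that pair from the error, and to 12 with median-of-ratios scaling.

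**Figure D5:**
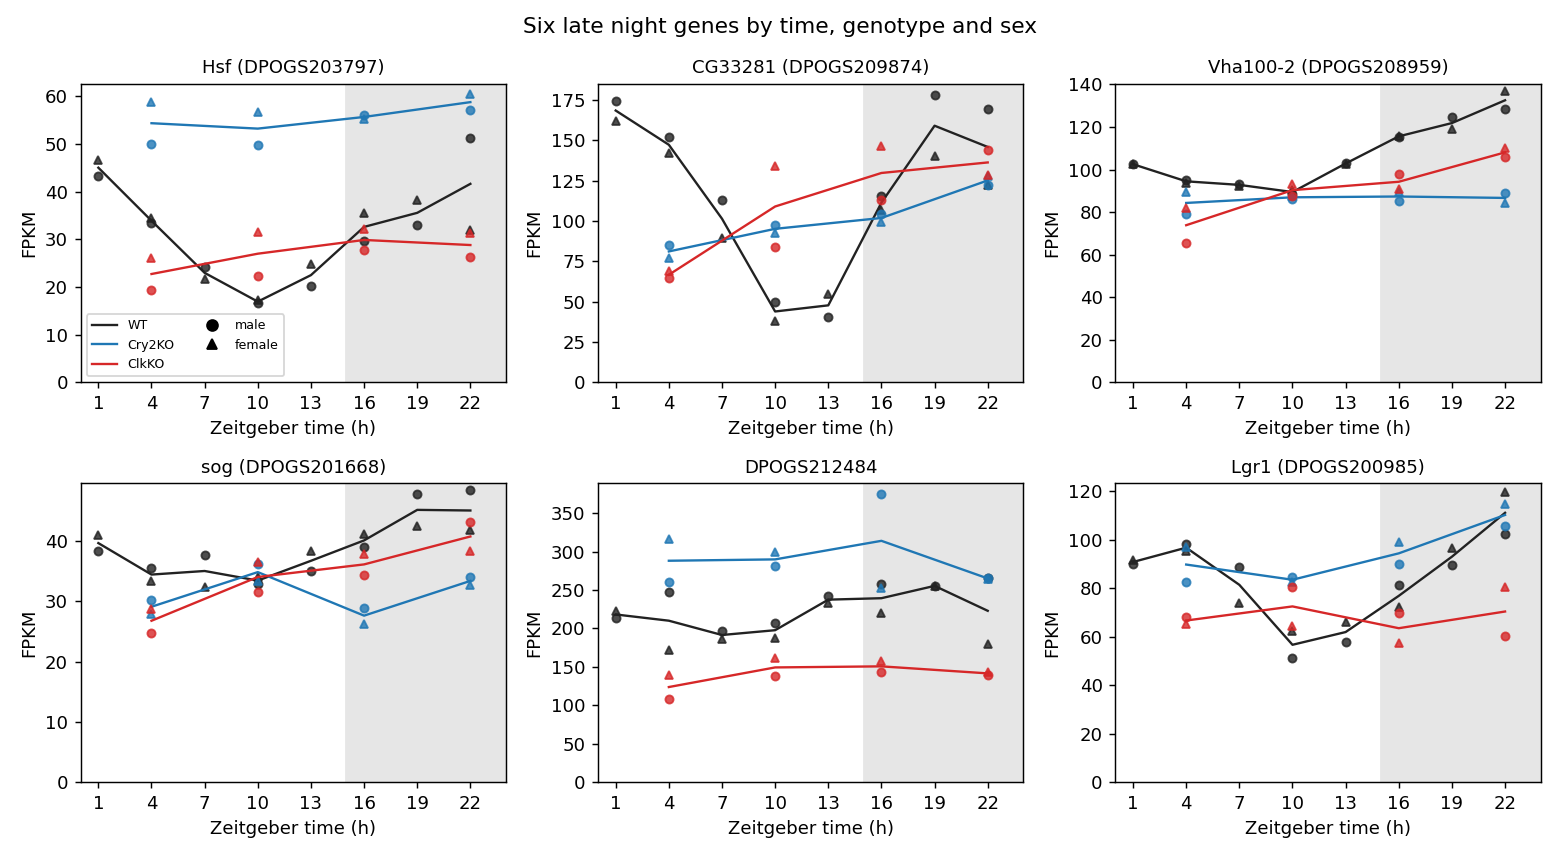
FPKM of 6 late night genes against Zeitgeber time (h) in wild-type (black), *Cry2* knockouts (blue) and *Clk* knockouts (red), with males as circles, females as triangles, lines through the mean of 2 libraries and darkness shaded. *Hsf* lay between 49.7 and 60.5 in *Cry2* knockouts and between 19.4 and 32.1 in *Clk* knockouts, and DPOGS212484 was split in the same order.

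In 49 of the 68 genes none of the 3 level comparisons made a call. Over all tested genes, 9.28% were called in *Cry2* knockouts minus wild-type, 5.87% in *Clk* knockouts minus wild-type and 3.02% between the knockouts. The share of all tested genes called in none of them was not computed. Read on the scale from wild-type trough to peak, the mean *Cry2* knockout level was below the trough in 15 of the 68 genes, in the lower part in 27, in the upper part in 22 and above the peak in 4, with a median at 39.3%. In *Clk* knockouts these counts were 14, 31, 17 and 6, with a median at 36.7%. These positions were not computed for other genes and are a description. Among named genes, *zld*, *NC2alpha*, *Best1*, *Ccp84Ae* and *CG33281* were within the wild-type range in both. *Cad86C* was above its wild-type peak in both (0.20, adjusted p = 0.0591, and 0.10, adjusted p = 0.329), and *v* was above it in *Clk* knockouts (0.27, adjusted p = 0.0966). *Kdm2* and *VhaSFD* did not pass a test either (-0.17 and -0.10 in *Cry2* knockouts, -0.27 and -0.14 in *Clk* knockouts).

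Sex was also compared in the knockouts, which the rule did not use. Females were higher in 55 of the 68 genes, with a median of 0.07 log2 units, but this was the course of all tested genes, of which 74% were higher with a median of 0.06. With median-of-ratios scaling 39 of the 68 were higher and the medians were 0.01 and 0.00. No gene passed the test (limma, 0 of 68, beside 0.25% of all tested genes higher in females and 0.106% lower), and 8 (all higher in females) had an unadjusted p below 0.05, beside 11.7% of all tested genes. *Hsf* was one of the 8, by 0.23 (standard error 0.06, adjusted p = 0.177), with 58.7, 56.8, 55.3 and 60.5 in *Cry2* knockout females and 50.0, 49.7, 56.0 and 57.1 in males at ZT4, ZT10, ZT16 and ZT22. In *Clk* knockouts its values were 26.1, 31.7, 32.1 and 31.4 in females and 19.4, 22.4, 27.7 and 26.3 in males. Females were higher in 7 of the 8 pairs.

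The night minus day difference was also fitted by sex. In *Cry2* knockout males its median over the 68 genes was 0.12, with 49 genes above 0, beside a median of 0.00 and 49.4% above 0 over all tested genes. In females it was -0.06, with 26 genes above 0, beside -0.04 and 41.8%. With median-of-ratios scaling the medians were 0.12 and -0.02, with 49 and 30 genes above 0. In *Clk* knockouts the medians were 0.19 and 0.09 in males and females, beside 0.19 and 0.04 over all tested genes. With median-of-ratios scaling they were -0.01 and 0.04, so that the order of the sexes turned. Each of these rests on 4 libraries. The test of the sex difference in both knockouts called no gene (limma, 0 of 68, beside 0% of all tested genes), with 2 at an unadjusted p below 0.05, beside 4.29% of all. The median of the 68 was -0.15, beside -0.10 over all, and -0.06 with median-of-ratios scaling, beside 0.00. In simulated data, this test called 13.5% of genes with a difference of 1 log2 unit.

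The genes with other peak times that passed the same p threshold give a frame for these counts. Names were paired with 48.5% of the late night genes, beside 86.6% of the 97 with a peak from ZT0 to ZT6, 62.6% of the 91 from ZT6 to ZT12 and 72.9% of the 96 from ZT12 to ZT18, shares that follow from which genes the study's table holds. In *Cry2* knockouts, 13 of the 68 late night genes were called in level, beside 29, 15 and 34 in the other windows, in the same order. The median level difference was -0.02 for the late night genes and 0.04, -0.13 and -0.18 for the others. No comparison between windows was tested, since all were chosen on the same libraries.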

How the data were processed

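Brain libraries of wild-type, *Cry2* knockout and *Clk* knockout monarchs fell into groups by labelled genotype and time, numbered by labelled replicate. The authors mapped 50-bp single-end reads to monarch assembly v3 with TopHat2 (reads from CASAVA 1.8.2, per the submitters' processing notes), and the deposited FPKM per gene and library, called RPKM in the methods, are those of Cufflinks with an interval. Versions of TopHat2 and Cufflinks are not given in the sources used here. FPKM divides by mapped reads, so that the values also depend on the share of those reads that falls on genes. The files hold no counts, and no count model was used. Coordinates are those of the files.

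Members were found by ordinary regression of log2(FPKM + 1) (pseudocount 1) in Python 3.11.15 with numpy 2.4.6 and scipy 1.17.1. The rule, the members and the gene lists were chosen with earlier results of these data known. Comparisons used limma 3.58.1 in R 4.3.3 on all 10412 genes with an FPKM of at least 3 in a wild-type library, with Benjamini-Hochberg adjustment over all of them and a call at 0.05. Night minus day is the fitted ZT21 minus ZT9 value of a 24-h harmonic over 16 knockout libraries, and level the mean of 4 times over 24 libraries with genotype-by-time means. Replicate number equals sex and was not a block in the tests. The test scripts were tested on simulated data with 200 changed genes each. Alternatives were a pseudocount of 0.1, no filter on low values, median-of-ratios scaling, a replicate block, additive time, and each library left out in turn. Named genes were members with a symbol other than a CG number, the 3 deepest rhythms, the 3 smallest adjusted p per comparison and 3 genes on either side of the threshold. The other genes called in a level comparison, and the lists' genes, were named after their values were seen. No sequences or genome of this assembly were used here, and figures were drawn with matplotlib 3.10.9.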

Additional observations from a re-analysis of the deposited data

Results flagged for a closer look

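For 7 of the 68 late night genes, the level difference from wild-type was not the same in the 2 knockouts, by the limma test of *Clk* knockouts minus *Cry2* knockouts (adjusted p of 0.05 or less). On the log2(FPKM + 1) scale the difference was -1.03 for DPOGS212484, -1.02 for *Hsf* (DPOGS203797), -0.48 for *Vha100-2* (DPOGS209797), -0.47 for DPOGS205077, -0.46 for *Lgr1* (DPOGS200985), -0.34 for *CG12484* (DPOGS205076) and 1.61 for DPOGS205275. All but *CG12484* kept their call under each of 29 alternatives, and *CG12484* kept it in 9. No group of the study's labels held the 4 libraries needed to look for a library far from the others within a group.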

How the results depend on the processing

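Of the 29 calls of a late night gene in a comparison of levels, 17 held under each of 29 alternatives, and none of the 841 values changed sign. Many alternatives cannot move the value itself, only its error or adjusted p. These are no filter, the replicate block, additive time and a left-out library of the genotype not compared. The kept sign is therefore partly set in advance. The least stable were *Clk* knockouts minus wild-type of *Lgr1* (kept in 5), DPOGS212615 (9) and DPOGS204004 (19), *Cry2* knockouts minus wild-type of *CG13366* (12), *CG9416* (13), *sea* (18) and DPOGS212484 (20), and *CG12484* between the knockouts (9). The number of late night genes was 68 with the rule as given and 42 with all 16 wild-type libraries, of which 27 were shared, while a replicate block gave 82 (59 shared), median-of-ratios scaling 65 (56 shared) and a pseudocount of 0.1 gave 67 (65 shared). With each library left out in turn it ran from 47, without the male library of ZT22, to 70. The level counts ran from 9 to 23 for *Cry2* knockouts, from 4 to 23 for *Clk* knockouts and from 6 to 12 between the knockouts. All 3 maxima came without the wild-type male library of ZT22, when the female library that stands apart is alone at that time. The maximum between the knockouts was also reached without that female library. Calls over all tested genes rose there too, so that these maxima are not particular to the late night genes. The median difference was then 0.04 in *Cry2* knockouts, beside -0.07 over all tested genes. In *Clk* knockouts it was 0.00, beside -0.06. The *Clk* knockout count of 9 was 4 without the *Clk* knockout male library of ZT16, 5 without the wild-type male library of ZT16 and 4 with additive time. The count of 7 between the knockouts was 12 with median-of-ratios scaling and 12 without either wild-type library of ZT22. A left-out library leaves 1 at that time, taken to vary like the others. The causes were not tested. The counts of 0 in the night minus day and sex comparisons were 0 under every alternative run.

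With the replicate block, the level counts were 13, 10 and 8, beside 13, 9 and 7 without it. The replicate number marks sex in the labels. Over the 120 pairs of groups, the difference between replicates correlated by 0.03 on average (-0.12 to 0.17, over 0.1 in 14 pairs). The number also goes with depth. Replicate 2 had more reads on genes than replicate 1 in 8 of 8 wild-type pairs, 4 of 4 *Cry2* knockout pairs and 1 of 4 *Clk* knockout pairs. The values of DPOGS205275 and *Tbc1d15-17* rest on medians of 4 and 1 reads per library.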
